A study of Rattus norvegicus with 10 samples.

Results

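The miR-204 and miR-211 family of the rat hippocampus consists of 4 mature miRNAs from 2 hairpins: miR-204-5p, miR-204-3p, miR-211-5p and miR-211-3p. The 4 were chosen by name from the 765 rat miRNAs of the deposited table, and the family was picked with the comparison of 2-VO with sham already known, in which the 5p arms lay lower in 2-VO. Values of that comparison are therefore a description of these libraries, and no p-value is given for a member. Counts of calls over all miRNAs or hairpins, which include the members, are printed as background only. All 4 names are in the table. Of these, 3 had a value above 0, and the same 3 had a mean of at least 1 RPM (reads of a miRNA scaled to a common library total, the usual reads-per-million unit), the limit for the fit across all miRNAs. The fourth, miR-211-3p, was listed at 0 in each of the 10 libraries.

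Small RNA was sequenced from hippocampal total RNA of 10-week-old Wistar rats. A group of 5 sham-operated libraries (replicates 1 to 5) was set against 5 libraries of the 2-VO group (replicates 3, 5, 6, 7 and 8), in which both common carotid arteries were closed as a model of lasting low blood flow to the brain. No transgene or drug is named for either group, and the sources used here do not give the interval from operation to sampling. The labels do not say whether each library comes from its own animal, so every SD and p-value here reflects variation between libraries, possibly technical only. In bulk RNA, fewer cells of a type and less RNA per cell cannot be told apart. The neuron markers fixed for a check of the tissue were all found, with a summed level of 165972 to 213739 RPM. The liver marker miR-122-5p lay at 0.948 to 3.12 RPM, and the muscle miRNAs, also expected to be low, summed to 22.5 to 35.3 RPM. Over the 10 libraries miR-211-5p ran from 1.59 to 4.76 RPM and miR-204-3p from 3.47 to 6.22 RPM. These 2 members thus lie at or near the level of markers of other tissues. What part of them comes from hippocampal cells was not tested.

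A miRNA is cut from a hairpin whose arms, 5p and 3p, pair with each other, and usually one arm is kept in the silencing complex while the other is degraded. The kept strand finds messenger RNAs mainly through its seed, bases 2 to 8. miR-204 and miR-211 are paralogs carried by genes of a cation channel family: in RefSeq, on the rat build GRCr8, Mir204 lies within Trpm3 and Mir211 within Trpm1. miR-204-5p is best known from the choroid plexus, which makes cerebrospinal fluid, and from the pigment epithelium and lens of the eye. miR-211-5p is best known from pigment cells.

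The mature sequences of all 4 members were found in RefSeq and show how close the 5p arms are and how far the 3p arms have diverged. Each is written 5′ to 3′ with the seed in capitals.
miR-204-5p: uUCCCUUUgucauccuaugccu
miR-211-5p: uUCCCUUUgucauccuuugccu
miR-204-3p: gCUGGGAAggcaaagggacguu
miR-211-3p: gGCAAGGAcagcaaaggggg

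The 5p arms share 21 of 22 bases and the whole seed. Their only difference is A17U, counted from the 5′ end (miR-204-5p has A at position 17 and miR-211-5p has U). No other of the 693 mature rat miRNAs of the RefSeq table has the seed UCCCUUU, nor its bases 2 to 7, so the family is the whole seed group there. The 3p arms have different seeds, each found in no other miRNA of that table. They are identical at 14 positions of a 23-position alignment, and their longest common run is the 8 bases GCAAAGGG. Bases 3 to 9 of both 5p arms, CCCUUUG, are the reverse complement of 7 bases of that run.

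The hairpins are printed to show where the arms sit, with the mature arms in capitals.
miR-204 hairpin: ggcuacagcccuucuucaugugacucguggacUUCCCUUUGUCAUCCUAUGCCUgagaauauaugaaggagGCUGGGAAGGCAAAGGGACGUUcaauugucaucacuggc
miR-211 hairpin: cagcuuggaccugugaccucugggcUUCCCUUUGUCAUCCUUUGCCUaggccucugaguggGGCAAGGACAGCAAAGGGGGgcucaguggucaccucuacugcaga

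The hairpins are 110 and 106 bases long and share 77 positions of a 116-position alignment, or 66.4%. The arms that carry the common seed are thus far more alike, at 95.5%, than the hairpins around them. The sources used here do not say how a read with a mismatch was assigned between the 5p arms. Since a single base separates them, reads of one can be counted under the other, and that part of the miR-211-5p values was not tested.

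miR-204-5p was the family's abundant member. It ranked 97th of 765 by mean level, with 539 RPM over the 10 libraries, and held 0.0764% of the RPM listed in the table. miR-204-3p, the other arm of the same hairpin, ranked 384th with 4.55 RPM, and miR-211-5p ranked 406th with 3.36 RPM. The 2 miRNAs next above miR-204-5p were miR-504 (562 RPM) and miR-370-3p (556 RPM), and the 2 next below were miR-330-5p (524 RPM) and miR-382-5p (507 RPM). Each of these 4 differs from miR-204-5p in mean by less than the SD of miR-204-5p over all libraries, 157 RPM. The 2 next above miR-211-5p were miR-200b-3p (3.40 RPM, range 0 to 18.4 RPM) and miR-673-5p (3.39 RPM), and the 2 next below were miR-3072 (3.30 RPM) and miR-154-3p (3.20 RPM). These means too lie within the SD of miR-211-5p, 1.14 RPM.

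**Figure D1:**
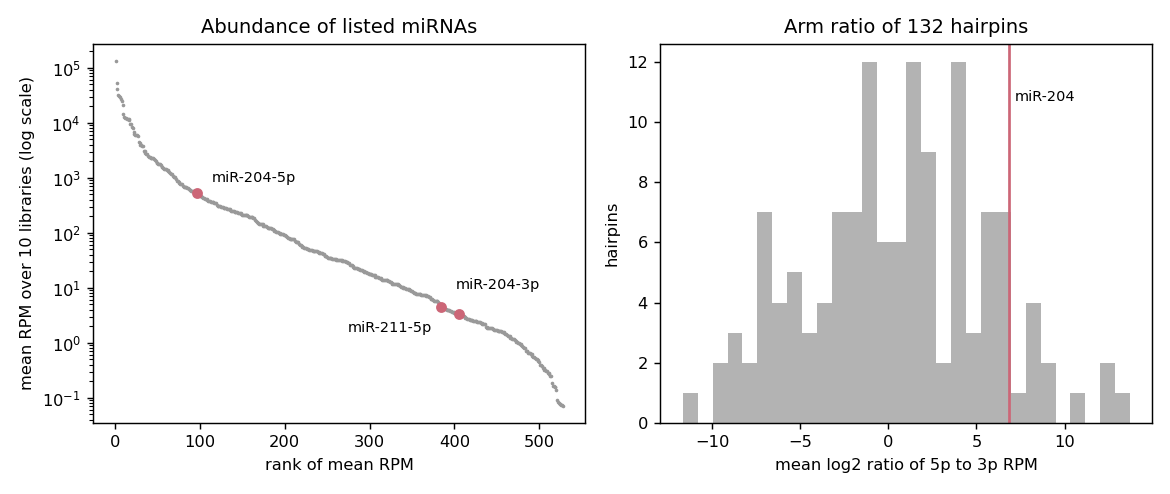
Left, mean RPM over the 10 libraries (log scale) of each miRNA above 0 against its rank, with the 3 detected family members in red. Right, number of hairpins by mean log2 ratio of 5p to 3p RPM for the 132 hairpins with both arms kept, with miR-204 marked at 6.86.

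In sham libraries 1 to 5, miR-204-5p stood at 563, 627, 624, 523 and 893 RPM. In 2-VO libraries 3, 5, 6, 7 and 8 it stood at 548, 393, 469, 367 and 385 RPM. Of the 2-VO libraries, 4 of 5 lay below every sham library, and replicate 3 lay above sham replicate 4, so the groups overlapped by that pair. The means were 646 ± 144.7 RPM in sham and 432 ± 75.7 RPM in 2-VO (SD, n = 5 each), which is 33.1% lower in 2-VO. Sham replicate 5 lay well above the other sham libraries.

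On the log2(RPM + 1) scale the difference of miR-204-5p, 2-VO minus sham, was -0.57 ± 0.15 (SE from limma's fit to all 474 miRNAs kept). A lower value was found for 2 of the 474, a place that follows from how the family was chosen. The difference was -0.45 without sham replicate 5, -0.66 without 2-VO replicate 3 and -0.54 without both. Relative to the median of all miRNAs it was -0.52 with RPM as deposited. After scaling to the reads listed in the table, by TMM factors or by median-of-ratios factors, it was -0.51 each time. Listed RPM summed to 60.3% of the total in 2-VO replicate 3 and 64.2% to 78.0% in the other libraries. A read can be counted in more than 1 row, so this sum is not strictly a share of reads. Scaled to it, 2-VO replicate 3 stood higher among the libraries. It then held 909 RPM of miR-204-5p, counted per listed reads, above 4 of the 5 sham libraries (787 to 844 in those, 1209 in sham replicate 5), while the other 2-VO libraries held 517 to 602.

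Counting error was small beside these differences. The RPM values stand for 7070 to 11639 reads of miR-204-5p in the sham libraries and 4883 to 7517 in the 2-VO libraries. The exact binomial 95% interval of the lowest sham value, 523 RPM, ran from 511 to 536 RPM, and that of the highest 2-VO value, 548 RPM, from 536 to 561 RPM. The coefficient of variation between libraries was 22.4% in sham and 17.5% in 2-VO, against 1.08% and 1.31% from counting alone. Intervals of this kind cover counting error only, since no molecular identifiers are named and PCR copies count as reads.

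miR-211-5p, with the same seed, was rare. Its sham values were 2.96, 3.93, 4.73, 4.51 and 4.76 RPM in replicates 1 to 5, from 41 to 62 reads. Its 2-VO values were 3.79, 2.44, 2.89, 2.03 and 1.59 RPM in replicates 3, 5, 6, 7 and 8, from 22 to 52 reads. As with miR-204-5p, 4 of 5 2-VO libraries lay below every sham library and the exception was replicate 3, here above sham replicate 1. The margin was narrow for 2-VO replicate 6, with 38 reads against 41 in sham replicate 1. The means were 4.18 ± 0.757 and 2.55 ± 0.846 RPM (SD, n = 5 each), 39.0% lower in 2-VO, with a log2(RPM + 1) difference of -0.56 ± 0.18 (SE). The difference depended on how low values were treated: it was -0.28 with a pseudocount of 5, -0.64 with 0.5, and -0.74 with limma's voom on the whole reads, which uses no such pseudocount on RPM.

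Counting error takes a larger part of miR-211-5p. The exact binomial 95% interval of its lowest value, 1.59 RPM in 2-VO replicate 8, ran from 0.996 to 2.41 RPM, and that of its lowest sham value, 2.96 RPM, from 2.12 to 4.02 RPM, so these overlap. Counting alone gives a coefficient of variation of 13.4% in sham and 17.1% in 2-VO, against 18.1% and 33.2% between libraries. Both 5p arms were thus lower on average in 2-VO with the same library outside the pattern, and for miR-211-5p the spread within groups is closer to its counting error. Reads of miR-204-5p counted under miR-211-5p, from which a single base separates it, could give such a shared pattern, and this was not tested.

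miR-204-3p, the rarer arm of its hairpin, differed less between the groups than its partner. It stood at 3.47, 4.97, 5.41, 3.70 and 6.22 RPM in sham replicates 1 to 5 and at 4.16, 4.20, 4.79, 4.21 and 4.41 RPM in 2-VO replicates 3, 5, 6, 7 and 8. The whole 2-VO range lay inside the sham range. The means were 4.75 ± 1.16 and 4.35 ± 0.263 RPM (SD, n = 5 each), from 48 to 81 and 55 to 63 reads, with a log2(RPM + 1) difference of -0.081 ± 0.15 (SE). Its sign turned to 0.0064 without sham replicate 5 and to 0.019 without that library and 2-VO replicate 3. In 2-VO the coefficient of variation, 6.04%, was below the 13.1% that counting alone gives for a group of this depth.

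miR-211-3p gave no value to compare. The smallest value above 0 in any library stood for 10 reads, or 0.722 to 0.767 RPM, and nothing between 0 and that value was listed, so a 0 is read as fewer than 10 reads. miR-211-5p stood at 2.2 to 6.2 times that smallest value, and no closer arm ratio can be given for miR-211.

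Across all miRNAs the comparison gives the background for these values. Of the 474, limma with Benjamini-Hochberg adjustment called 0%, and 24 had an unadjusted p under 0.05 (25 with voom, which also called 0). Every 2-VO library lay below every sham library for 0 of the 3 detected members and for 0.633% of the 474. A lower mean in 2-VO was found for 3 of 3 members and for 62.2% of the 474. Nothing is read from these counts, because the same contrast led to the family.

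**Figure D2:**
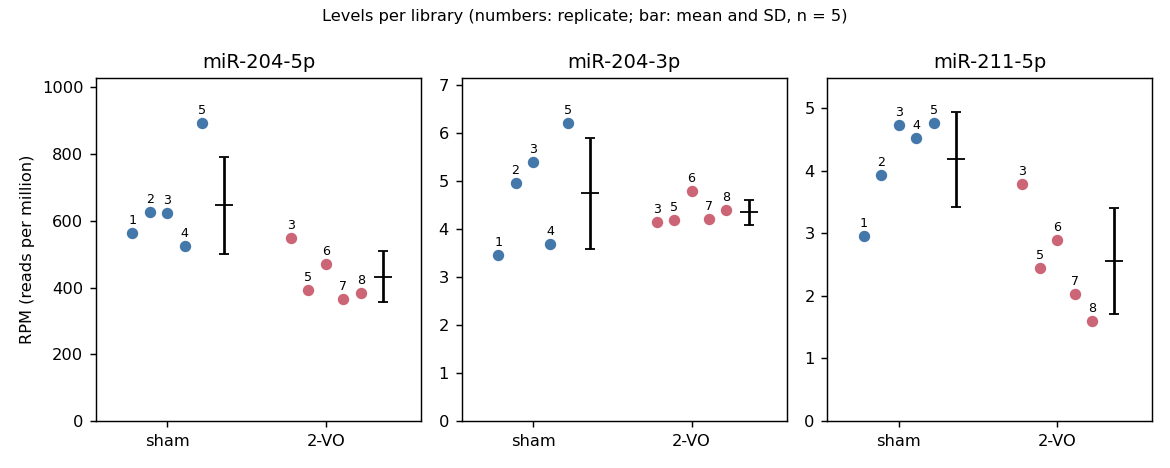
RPM of miR-204-5p, miR-204-3p and miR-211-5p in each library, by group, on axes that start at 0; numbers are replicates and the black bar is the mean with its SD (n = 5). The 2-VO values of the 5p arms lie low except replicate 3, and those of miR-204-3p lie within the sham range.

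A ratio of rows within a library is free of the library's total. The miR-204 arm ratio, 5p over 3p, was 163, 126, 115, 141 and 144 in sham replicates 1 to 5 and 132, 93.6, 98.0, 87.2 and 87.2 in 2-VO replicates 3, 5, 6, 7 and 8. Of the 2-VO libraries, 4 of 5 lay below every sham library, with replicate 3 among the sham values. The numerator is miR-204-5p, whose contrast was known when the family was picked, so this order is not a separate result. As log2 the ratio averaged 7.10 ± 0.189 among sham and 6.62 ± 0.247 among 2-VO libraries (SD, n = 5 each), a difference of -0.48 ± 0.14 (SE). It was -0.58 without 2-VO replicate 3, the most negative value with any single library left out, and -0.42 without sham replicate 1, the least negative. The 3p arm supplies only 48 to 81 reads to each ratio.

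miR-204 is among the more one-sided hairpins of the table. Of 132 hairpins with both arms kept, 71 had more 5p than 3p reads on average, and miR-204 had the 12th highest ratio, a mean log2 ratio of 6.86 ± 0.326 (SD, n = 10) or 116-fold. Next above were miR-3557 (252-fold) and miR-337 (146-fold), and next below miR-134 (110-fold) and miR-146b (102-fold). A bias of this size in either direction is not rare here, since 22 hairpins were more one-sided than miR-204. Among those 4 neighbours, fitted on log2(RPM + 1) in which miR-204 differs by -0.49 ± 0.13, the 2-VO minus sham differences were 0.065 ± 0.100 for miR-3557, -0.44 ± 0.15 for miR-337, -0.0065 ± 0.11 for miR-134 and -0.21 ± 0.12 for miR-146b (SE). Over all 132, limma with Benjamini-Hochberg adjustment called 0% of arm ratios, 15 had an unadjusted p under 0.05, and 57 were lower in 2-VO.

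The paralog ratio, miR-204-5p over miR-211-5p, ran from 116 to 242 and showed no such order by group. It was 190, 160, 132, 116 and 188 in sham replicates 1 to 5 and 145, 161, 163, 181 and 242 in 2-VO replicates 3, 5, 6, 7 and 8. Every 2-VO library but replicate 8 lay inside the sham range. On the log2 scale it averaged 7.27 ± 0.314 among sham and 7.45 ± 0.284 among 2-VO libraries (SD, n = 5 each), a difference of 0.18 ± 0.19 (SE) that lay within its error. Leaving out 2-VO replicate 8 gave 0.068, and a pseudocount of 1 on both values gave -0.0057. In other words, miR-211-5p amounted to 0.413% to 0.863% of miR-204-5p, and the highest and the lowest share rest on 61 and 22 reads of miR-211-5p, in sham replicate 4 and 2-VO replicate 8. The part of misassigned miR-204-5p reads in this share was not tested.

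The ratio of the 2 rare members also differed by group, on 22 to 81 reads per member and library. miR-204-3p over miR-211-5p had a mean log2 ratio of 0.17 ± 0.268 in sham and 0.83 ± 0.490 in 2-VO (SD, n = 5 each), a difference of 0.66 ± 0.25 (SE). The lower miR-211-5p in 2-VO was known when the family was picked, so this difference is not a separate result. In 2-VO replicates 5, 6, 7 and 8 the ratio was 1.72, 1.66, 2.07 and 2.77, above the sham maximum of 1.31, while 2-VO replicate 3 stood at 1.10.

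**Figure D3:**
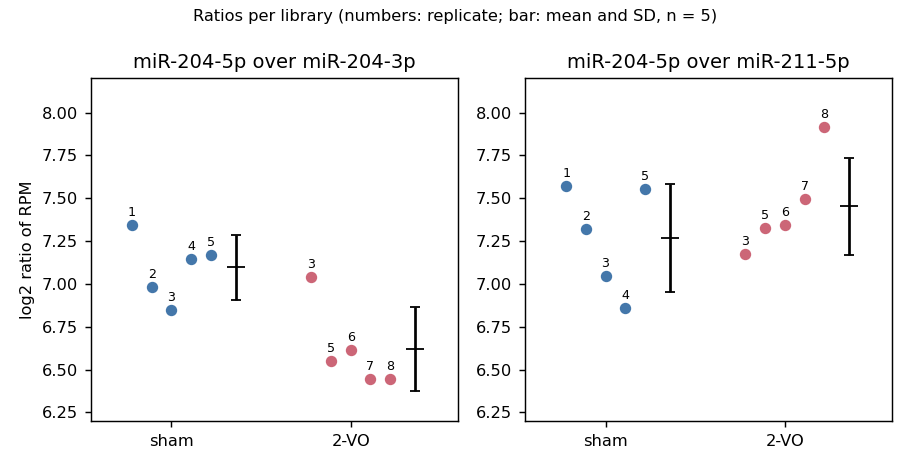
log2 ratio of miR-204-5p to miR-204-3p (left) and to miR-211-5p (right) in each library, by group; numbers are replicates and the black bar is the mean with its SD (n = 5). The vertical axis does not start at 0. The arm ratio lies lower in 2-VO except replicate 3, while the paralog ratio overlaps between groups.

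The hippocampus borders on the choroid plexus and the ependyma that lines the ventricles, so other miRNAs known from these cells were examined beside the family. A first list held miRNAs hosted by Htr2c, a serotonin receptor gene that choroid plexus expresses strongly. Its 5 detected members of 7 in the table had a summed level of 221 to 1052 RPM in sham (median 351) and of 220 to 413 RPM in 2-VO (median 245), while miR-1912-5p and miR-764-3p were at 0. A second list held miRNAs of ciliated cells. Its 5 detected members of 8 summed to 308 to 1111 RPM in sham (median 689) and 487 to 729 RPM in 2-VO (median 558), with miR-449a-3p, miR-449c-5p and miR-449c-3p at 0. The groups overlapped for both sums.

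miR-1298 was the most abundant Htr2c-hosted miRNA. It stood at 210, 405, 254, 325 and 993 RPM in sham replicates 1 to 5 and at 208, 237, 207, 222 and 381 RPM in 2-VO replicates 3, 5, 6, 7 and 8. Its log2(RPM + 1) difference was -0.60 ± 0.32 (SE), and ran from -0.81 without sham replicate 1 to -0.25 without sham replicate 5. Without the same libraries miR-204-5p differed by -0.61 and -0.45. miR-448-3p, also in Htr2c, differed by -0.33 ± 0.33, by -0.61 without sham replicate 1 and by -0.033 without sham replicate 5. Of the remaining members miR-764-5p differed by -0.32 ± 0.24 (-0.086 without 2-VO replicate 3), miR-1912-3p by -0.25 ± 0.26 (-0.44 without sham replicate 1, -0.021 without sham replicate 5) and miR-448-5p by 0.13 ± 0.27 (-0.15 without sham replicate 1), all at 4.53 RPM or less.

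miR-34c-5p, the leading miRNA of the ciliated-cell list, stood at 290, 541, 683, 651 and 1061 RPM in sham and at 588, 529, 698, 464 and 528 RPM in 2-VO libraries, in the same order of replicates. Its difference was -0.095 ± 0.25 (SE), and ran from -0.35 without sham replicate 1, its lowest library, to 0.11 without sham replicate 5, its highest. miR-34b-3p differed by -0.16 ± 0.20, miR-34c-3p by -0.13 ± 0.26, miR-34b-5p by -0.0054 ± 0.26 and miR-449a-5p by 0.075 ± 0.13. The sign of miR-34b-5p turned with scaling to listed reads (0.044), TMM (0.047) and median-of-ratios factors (0.043). Without sham replicate 5 these were -0.025 for miR-34b-3p, 0.088 for miR-34c-3p and 0.23 for miR-34b-5p, and without sham replicate 1 they were -0.34, -0.35 and -0.22. Over both lists 8 of 10 kept members had a lower mean in 2-VO, against 62.2% of all miRNAs, with a median difference of -0.15 against -0.051, and 0 of the 10 passed the adjusted threshold (limma). The count was 5 of 10 without sham replicate 5 and 9 of 10 without sham replicate 1. The median difference of all miRNAs was then -0.032 and -0.079, and the share of all miRNAs lower is not given for these settings.

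**Figure D4:**
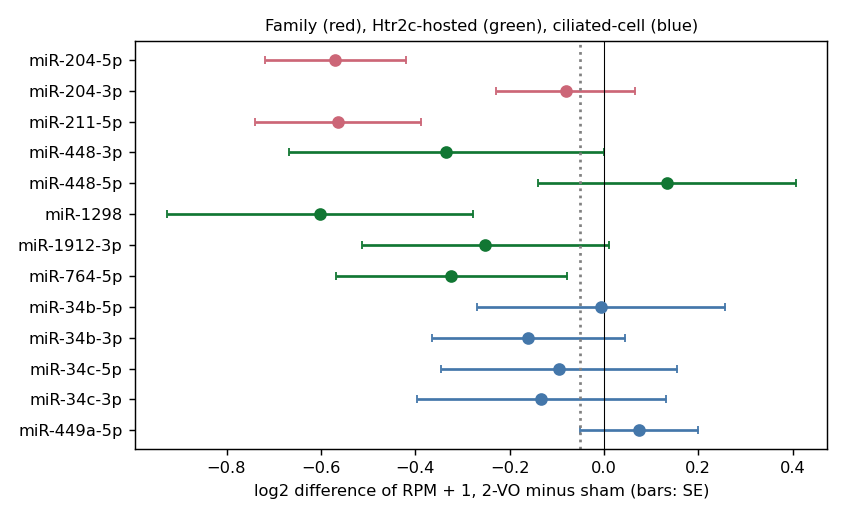
Difference of mean log2(RPM + 1), 2-VO minus sham, with its SE for the 3 detected family members (red), 5 Htr2c-hosted (green) and 5 ciliated-cell miRNAs (blue). The dotted line marks the median of all 474 miRNAs, -0.051. The members' places follow from how the family was chosen, and the SE bars of miR-1298 are wider than those of the 5p arms.

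Sham replicate 5 held the highest miR-204-5p (893 RPM), the highest Htr2c-hosted sum (1052 RPM, others in sham 221 to 438) and the highest ciliated-cell sum (1111 RPM, others in sham 308 to 715). These sums were mostly miR-1298 (993 RPM) and miR-34c-5p (1061 RPM). Among sham libraries it was also highest for miR-448-3p, miR-1912-3p and each miR-34b and miR-34c row. It was not for miR-764-5p and miR-448-5p, highest in sham replicate 2, nor for miR-449a-5p (2.15 RPM, against 2.60 RPM in sham replicate 1). In 2-VO replicate 8 the Htr2c-hosted sum was the highest of its group, at 413 RPM, while miR-204-5p stood at 385 RPM and miR-211-5p at its lowest. The library outside the family's pattern, 2-VO replicate 3, had the lowest Htr2c-hosted sum of its group, 220 RPM, and a ciliated-cell sum of 618 RPM. It also had the highest sum of the epithelial list, 49.9 RPM against 8.26 to 16.3 RPM in the other libraries, and the lowest share of listed reads. Most of that sum was miR-200a-3p (21.9 RPM) and miR-200b-3p (18.4 RPM). The epithelial list did not rise as a whole: miR-200c-3p reached at most 2.92 RPM in 2-VO and 3.11 RPM in sham. For miR-205 these maxima were 5.57 and 7.09 RPM, and miR-141-3p was at 0. The part of the listed cell types and of library composition in the family's values was not tested beyond the relations that follow.

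Whether the members and these lists vary together between libraries of the same group does not use the difference between groups. The deviations of log2(RPM + 1) from the group mean were therefore correlated over the 10 libraries for 7 relations, each with an exact two-sided permutation test within groups (14400 arrangements) and Benjamini-Hochberg adjustment over the 7. miR-204-5p and miR-204-3p had a Pearson's r of 0.66 (p = 0.029, adjusted p = 0.16) and a Spearman's rho of 0.61 (p = 0.11, adjusted p = 0.31). For miR-204-5p and miR-211-5p the exact permutation test gave 0.66 (p = 0.046, adjusted p = 0.16) and 0.71 (p = 0.034, adjusted p = 0.24). Neither relation passed after adjustment. Reads assigned to the wrong 5p arm could also raise r between the 5p arms, and this was not tested. Without the 2 libraries farthest from the median of miR-204-5p, sham replicate 5 and 2-VO replicate 3, r was 0.72 with miR-204-3p and 0.48 with miR-211-5p.

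The relations with the lists did not pass either. With the ciliated-cell sum r was 0.64 (rho 0.56, permutation p = 0.096 and 0.13, adjusted p = 0.22 and 0.31), and 0.39 without the 2 farthest libraries. With the Htr2c-hosted sum r was 0.49 (rho 0.19, permutation p = 0.22 and 0.65, adjusted p = 0.31 and 0.76) and was -0.12 without those libraries. Its positive sign rests on sham replicate 5, since r was -0.29 without that library alone and 0.68 without 2-VO replicate 3 alone. With the epithelial sum r was 0.47 (rho 0.27, permutation p = 0.15 and 0.45, adjusted p = 0.26 and 0.63) and -0.34 without the 2 farthest libraries. For the mesenchymal list of meninges and vessel wall r was -0.24 (rho -0.042, permutation p = 0.52 and 0.92, adjusted p = 0.61 and 0.92) and 0.64 without them. That r was -0.64 after scaling to listed reads, -0.49 with TMM and -0.56 with median-of-ratios factors. The mesenchymal sum is almost wholly miR-143-3p, which averaged 12374 RPM in sham and 12201 RPM in 2-VO. The other members of that list carry little weight in this r. Likewise, the ciliated-cell sum is mostly miR-34c-5p and the Htr2c-hosted sum mostly miR-1298. In 2-VO replicate 3 the epithelial sum is mostly miR-200a-3p and miR-200b-3p. The share of listed reads gave 0.095 (rho 0.30, permutation p = 0.79 and 0.41, adjusted p = 0.79 and 0.63) and 0.87 without the 2 farthest libraries.

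**Figure D5:**
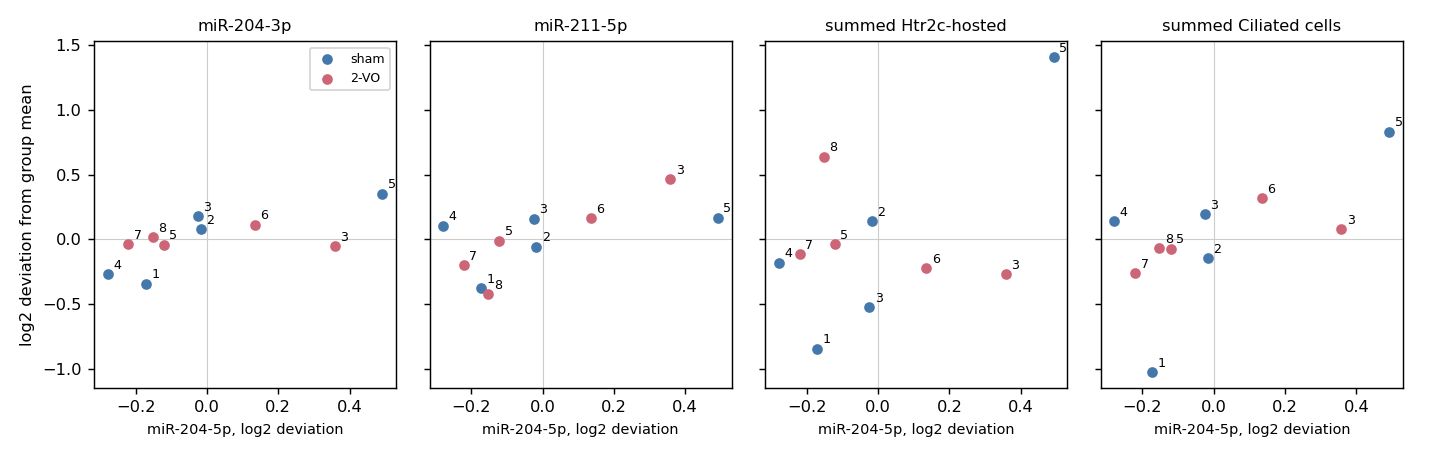
Deviation of log2(RPM + 1) from the group mean for miR-204-5p (horizontal) against miR-204-3p, miR-211-5p and the summed Htr2c-hosted and ciliated-cell lists (vertical), 1 point per library with its replicate number. Sham replicate 5 lies at the far right and above 0 in each panel, and 2-VO replicate 8 is the highest 2-VO library for the Htr2c-hosted sum.

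Among 338 other miRNAs of at least 10 RPM, those whose deviations followed miR-204-5p most closely were miR-340-3p (r = 0.90), let-7a-1-3p (0.87), let-7c-2-3p (0.87), miR-21-5p (0.81) and miR-423-3p (0.73), over 10 libraries and as a description only. The rows let-7a-1-3p and let-7c-2-3p hold identical values, so they count as 1 pattern. All 5 stood higher in sham replicate 5 than in any other sham library, and without it r was 0.79 for miR-340-3p, still the highest of all, 0.72 for the let-7 rows, 0.73 for miR-21-5p and 0.53 for miR-423-3p. The differences between groups of these miRNAs were small, from -0.11 ± 0.12 for miR-423-3p to 0.035 ± 0.12 for miR-21-5p (SE). The lowest values of r belonged to miR-1224 (-0.76), miR-496-3p (-0.72) and miR-1843a-3p (-0.71), and without sham replicate 5 they were -0.73, -0.48 and -0.38.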

How the data were processed

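The authors deposited 1 table of RPM per mature miRNA and library. Its name gives the unit, and its header gives only sample titles. Tools listed in the submitters' processing notes are bcl2fastq and BWA, with the build rn6. Their versions, the annotation and the treatment of multiply matching reads were not named in the sources used here. Some rows have equal or nearly equal means, such as miR-125b-5p (9691.95 RPM) and miR-3588 (9691.65 RPM), or miR-210-3p and miR-3574 (69.2 RPM each). Reads thus appear to be counted under more than 1 name. All 4962 values above 0 were whole reads, within 0.01, of one divisor per library, 13032805 to 13850400 reads. Column titles matched the labels. Sequences came from RefSeq (GRCr8), which held 690 of the 765 names. No coordinates are given, since the builds differ.

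Differences were fitted on log2(RPM + 1) for 474 miRNAs that averaged 1 RPM or more, with limma 3.58.1 in R 4.3.3 (mean-variance trend, no covariate, Benjamini-Hochberg, threshold 0.05). Log2 differences understate changes of low miRNAs. The fit and the permutation tests (Python 3.11.15, SciPy 1.17.1) were tested on simulated data. Ratios used RPM without a pseudocount. The planned tests on whole reads were not run, since values under 10 reads are not listed. Fits with voom were added afterwards, as was leaving out 2-VO replicate 3 with sham replicate 5. The voom fit used the same whole reads with unlisted values as 0, so it shares that limit.

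The members, lists, tests and the rule for named miRNAs were chosen with earlier results of these data known. That rule took the members, detected members of the Htr2c-hosted and ciliated-cell lists, the 5 most and 3 least alike miRNAs of at least 10 RPM, and the nearest neighbours in level and arm ratio. Lists of mesenchymal, epithelial, neuron, liver and muscle miRNAs were fixed as markers. Muscle miRNAs summed to 22.5 to 35.3 RPM.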

Additional observations from a re-analysis of the deposited data

Results flagged for a closer look

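Some libraries stood apart within their group: the distance to the closest other value exceeded 0.71 of the whole range. This held for 10 of 64 groups of 5 values, where chance gives about 3.2, and several of the 10 share a library or a row. In the sham group, replicate 5 had the highest miR-204-5p (893 RPM, others 523 to 627), the highest miR-1298 (993 RPM, others 210 to 405), the highest Htr2c-hosted sum (1052 RPM, others 221 to 438) and the highest let-7a-1-3p and let-7c-2-3p (378 RPM in both, others 252 to 288). Sham replicate 4 had the lowest log2 ratio of miR-204-3p to miR-211-5p (-0.29, others 0.20 to 0.39).

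Among 2-VO libraries, replicate 3 showed the highest log2 arm ratio of miR-204 (7.04, others 6.45 to 6.62) and the highest sum of the epithelial list (49.9 RPM, others 8.26 to 16.3). Replicate 8 had the highest miR-1298 (381 RPM, others 207 to 237) and the highest Htr2c-hosted sum (413 RPM, others 220 to 258).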

How the results depend on the processing

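The differences of miR-204-5p (-0.68 to -0.45) and miR-211-5p (-0.74 to -0.28) kept their sign in every setting run, and so did the arm ratio. Leaving out single libraries gave -0.66 to -0.45 for miR-204-5p, -0.17 to 0.0064 for miR-204-3p, -0.68 to -0.46 for miR-211-5p, -0.58 to -0.42 for the arm ratio and 0.068 to 0.26 for the paralog ratio. It gave 0 miRNAs past the threshold throughout, 0 to 3 hairpins (miR-23b, miR-329 and miR-409a without sham replicate 5, and miR-204, whose contrast led to its choice, without 2-VO replicate 3, so that nothing is read from its call) and 5 to 9 of the 10 choroid plexus and ciliated-cell miRNAs lower. With a mean of at least 10 RPM required, 4 of the 4 still tested lay lower, where the median of all miRNAs was -0.054. These are miR-448-3p and miR-1298, both in Htr2c, with miR-34b-3p and miR-34c-5p. The share of all miRNAs lower is not given for these settings, so nothing is read from the counts of lower members.

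Only numbers 3 and 5 are shared between the groups, and nothing in the labels pairs them. Deviations of same-numbered libraries correlated at -0.058 and -0.18. With the replicate number as a block, which leaves the difference to those pairs, 8 miRNAs passed, miR-204-3p stood at -0.39 and the arm ratio at -0.21, with miR-204-5p at -0.68, miR-211-5p at -0.50, miR-1298 at -1.18, miR-448-3p at -1.20, miR-34c-5p at -0.61 and miR-34b-5p at -0.53. Only the same-numbered libraries enter these values, so they are not comparable with those of the main fit. Among these libraries, sham replicate 5 held the highest sham value of each miRNA named in this paragraph. Every other library has a replicate number of its own. The block fit thus has almost no residual left to estimate error, and nothing is read from its 8 calls.

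Of the relations with miR-204-5p, leaving out single libraries gave r of 0.37 to 0.84 for miR-204-3p (adjusted p = 0.049 to 0.47 by permutation, the smallest without 2-VO replicate 3), 0.50 to 0.80 for miR-211-5p, -0.29 to 0.68 for the Htr2c-hosted sum (negative without sham replicate 5), 0.32 to 0.77 for the ciliated-cell sum, -0.53 to 0.082 for the mesenchymal sum (positive without 2-VO replicate 3), -0.020 to 0.61 for the epithelial sum (negative without that library) and -0.061 to 0.59 for the listed share. After scaling to listed reads, by TMM or by median-of-ratios factors, r was 0.66 to 0.68 for miR-204-3p (adjusted p = 0.068, 0.062 and 0.055 by permutation), -0.64 to -0.49 for the mesenchymal and 0.62 to 0.66 for the epithelial sum. Depth limits miR-204-3p and miR-211-5p, with 22 to 81 reads per library, and miR-211-3p, below the 10 reads listed.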
